A study of Mus musculus with 9 samples.

Results

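The nuclear genes that encode the subunits of the 5 oxidative phosphorylation complexes were compared between cultures given pamidronate, with or without geranylgeraniol (GGOH), and cultures given neither. All cultures were of RAW 264.7, a macrophage-like line from the mouse that is widely used as a source of osteoclasts. Members were all genes of the deposited count table whose symbol marks a subunit of complex I (Nduf followed by a, b, c, s or v and a digit), complex II (Sdha to Sdhd), complex III (Uqcr), cytochrome c oxidase (Cox4 to Cox8) or ATP synthase (Atp5), leaving out the 6 such symbols that end in -ps, the mark of a pseudogene. The rule used names only, no measured value, and gave 83 of the 49315 genes of the table. They comprised 35 genes of complex I, 4 of complex II, 8 of complex III, 20 of complex IV and 16 of complex V, and Ndufa4 and its relative Ndufa4l2 were counted with complex IV, where the protein Ndufa4 sits. Low counts kept 4 of them out of the tests (Cox7b2, Cox8b, Cox8c and Ndufa4l2), so that 79 members stood among the 15963 genes tested. Of these 79, Cox6b2 passed the filter only through the drug libraries, where it is high, so its calls had to go 1 way and are counted below without being read as support.

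Total RNA was sequenced after ribosomal RNA depletion in 9 libraries, 3 per group. The first group received 140 µM pamidronate together with 5.25 µM GGOH (its library names also carry the tag 25pct, which the labels do not explain), the second 140 µM pamidronate, and the third is the control, labelled as untreated. According to the growth notes, which make no exception for the controls, the cells were grown for 24 h, then received the osteoclast-inducing cytokine RANKL at 20 ng/ml, got the drugs after 48 h in all, and were collected 24 h later. Only the control titles call the replicates biological, and RNA is said to have been extracted in triplicate, so p-values measure the spread between these libraries, which may be technical. Pamidronate is a nitrogen-containing bisphosphonate that blocks the isoprenoid branch of the mevalonate pathway, and GGOH is an alcohol that cells can turn into one of the missing isoprenoids. A single cell line, 1 pamidronate dose and 1 collection time limit the model.

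Complex I oxidises NADH and complex II oxidises succinate, and both hand electrons to ubiquinone, an electron carrier whose tail is itself an isoprenoid. Complex III passes the electrons on to cytochrome c and complex IV to oxygen, while complexes I, III and IV pump protons that drive the rotary ATP synthase, complex V. Each complex except complex II combines subunits made in the cytosol from nuclear genes with subunits encoded by mitochondrial DNA, and in macrophages the chain carries both ATP production and signals such as succinate oxidation during inflammatory activation.

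The promoters of 4 members stand for the patterns described below: a complex II gene and an ATP synthase gene lower in pamidronate than in control, an ATP synthase gene higher in pamidronate than in control, and a complex III gene lower with pamidronate + GGOH than with pamidronate. Sequences are from RefSeq (build GRCm38.p6), run 5′ to 3′ on the strand of the gene from 250 bases before to 50 bases after the first listed start, and capitals mark matches to the 4 motifs searched. Sdha was read from chr13:74350191-74350490 on the minus strand, Atp5b from chr10:128083057-128083356 on the plus strand, Atp5l from chr9:44920693-44920992 on the minus strand and Uqcrh from chr4:116075021-116075320 on the minus strand.
Sdha: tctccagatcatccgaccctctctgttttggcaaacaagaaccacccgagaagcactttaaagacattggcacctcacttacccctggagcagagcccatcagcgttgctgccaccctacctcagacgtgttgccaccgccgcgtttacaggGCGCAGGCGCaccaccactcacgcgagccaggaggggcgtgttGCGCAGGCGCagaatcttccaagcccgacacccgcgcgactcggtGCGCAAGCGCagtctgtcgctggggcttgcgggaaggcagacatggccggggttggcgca
Atp5b: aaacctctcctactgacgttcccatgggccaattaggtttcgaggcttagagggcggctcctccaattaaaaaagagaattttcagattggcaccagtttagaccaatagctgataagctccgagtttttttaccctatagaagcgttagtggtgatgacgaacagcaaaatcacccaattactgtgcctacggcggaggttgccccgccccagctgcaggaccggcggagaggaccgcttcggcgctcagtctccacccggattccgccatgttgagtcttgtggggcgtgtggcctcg
Atp5l: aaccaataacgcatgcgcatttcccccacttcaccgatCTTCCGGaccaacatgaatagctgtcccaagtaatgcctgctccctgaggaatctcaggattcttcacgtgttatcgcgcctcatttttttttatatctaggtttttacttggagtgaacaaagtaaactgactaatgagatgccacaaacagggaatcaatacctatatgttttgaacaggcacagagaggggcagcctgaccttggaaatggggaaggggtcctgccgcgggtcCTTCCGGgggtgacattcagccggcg
Uqcrh: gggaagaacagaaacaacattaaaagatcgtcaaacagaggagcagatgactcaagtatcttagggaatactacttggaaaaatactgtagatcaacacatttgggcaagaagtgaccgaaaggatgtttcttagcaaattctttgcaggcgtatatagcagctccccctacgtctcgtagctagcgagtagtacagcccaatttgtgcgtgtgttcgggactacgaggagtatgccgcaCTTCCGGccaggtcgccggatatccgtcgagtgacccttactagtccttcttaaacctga
The Sdha window holds 3 matches to GCGCA, any base, GCGC (the core of the NRF1 site), Atp5l holds 2 and Uqcrh 1 match to CCGGAAG, an ETS site of the kind bound by GABPA that these windows hold on the opposite strand, where capitals mark its reverse complement, and Atp5b holds none.

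A promoter was matched for 68 of the 83 members, and motifs were searched on both strands. The NRF1 core occurred in 23.5% of the members' promoters and in 4.78% of all 27025 promoters of the same length. The ETS letters occurred in 22.1% of the members' promoters against 9.12% of all promoters, the YY1 letters AAGATGGC in 13.2% against 2.88%, and the ERRA letters TCAAGGTCA in 2.94% (2 members) against 0.407%. All promoters include those of genes that were not tested. Split by the call in pamidronate against control, described below, the ETS letters stood in 1 of 30 promoters of members called lower, 12 of 32 of members not called and 2 of 4 of members called higher. Over the tested genes that had a matched promoter the corresponding shares were 15.0% of 3942, 20.6% of 2909 and 20.3% of 3477. NRF1 letters stood in 7 of 30, 9 of 32 and 0 of 4 members' promoters, against 10.6%, 10.6% and 10.1% of those tested genes. YY1 letters stood in 5 of 30, 4 of 32 and 0 of 4 members' promoters, against 4.34%, 5.4% and 4.77% of the same tested genes. ERRA letters stood in 1 of 30, 1 of 32 and 0 of 4, against 0.279%, 0.309% and 0.201%. Motif shares describe the letters in these windows and carry no test.

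Library totals ran from 14356069 to 17559086 counts with pamidronate + GGOH, from 16444207 to 16644139 with pamidronate and from 16943250 to 18957968 in the controls. Members took 0.420% to 0.437% of the counts with pamidronate + GGOH, 0.383% to 0.395% with pamidronate and 0.470% to 0.494% in the controls. Mitochondrially encoded genes took 5.43% to 6.31% with pamidronate + GGOH, 3.71% to 5.19% with pamidronate and 10.4% to 10.8% in the controls. A single other gene, Gm26917, took 10.04% to 11.7%, 12.1% to 12.9% and 7.17% to 8.41% of the counts in the same 3 groups. With shares of this size moving between groups, the scale on which members are read matters. Levels are given as CPM, in which every library is brought to the same total after its own total is multiplied by a TMM factor. The factors were 1.09 to 1.12 with pamidronate + GGOH, 0.958 to 0.985 with pamidronate and 0.904 to 0.955 in the controls, and each call was also made on 5 other scales. They were RLE size factors, upper-quartile factors, TMM factors computed without the mitochondrially encoded genes, Malat1 and Gm26917, plain library totals and the deposited TPM, the last 2 chosen after the data were seen. Of these, the third left 15896 genes and 78 members to test, without Cox6b2, and the deposited TPM were tested with limma in place of edgeR, so these 2 change more than the scale. In bulk RNA, fewer cells of a type and less RNA per cell cannot be told apart.

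More nuclear subunit transcripts were called lower than higher in pamidronate relative to control, and Sdha and the catalytic ATP synthase subunit Atp5b stood furthest down. Of the 79 members tested, 5 rose and 39 fell in pamidronate relative to control at an adjusted p under 0.05 (edgeR's quasi-likelihood test, Benjamini-Hochberg adjustment over all genes), and 35 were not called. Over all genes tested, 36.2% were called higher and 32.9% lower, 69.2% in either direction, so 49.4% of members called lower and 6.33% called higher stand beside a background in which most genes differed. The median log2 fold change of the members was -0.25, against 0.08 for all genes tested. In 53 members the pamidronate libraries and the controls did not overlap, as in 73.4% of all genes tested.

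Complex by complex, members called higher and lower in pamidronate relative to control numbered 1 and 19 of 35 in complex I, 0 and 2 of 4 in complex II, 1 and 4 of 8 in complex III, 2 and 5 of 16 in complex IV, and 1 and 9 of 16 in complex V. Beside these stand 36.2% and 32.9% of all genes tested. The median log2 fold changes were -0.37 in complex I, -0.42 in complex II, -0.23 in complex III, -0.14 in complex IV and -0.50 in complex V. On the 6 scales together, 30 members were called lower on every one and 4 higher on every one. With upper-quartile factors 14 were called higher and 30 lower, on library totals 9 and 35, and on deposited TPM 15 and 34. The complex IV median turned to 0.06 with upper-quartile factors. Measured against the median of all genes on the same scale, the members' median lay -0.39 to -0.34 away on the 6 scales, that of complex V -0.58 and that of complex IV -0.24 to -0.22.

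**Figure D1:**
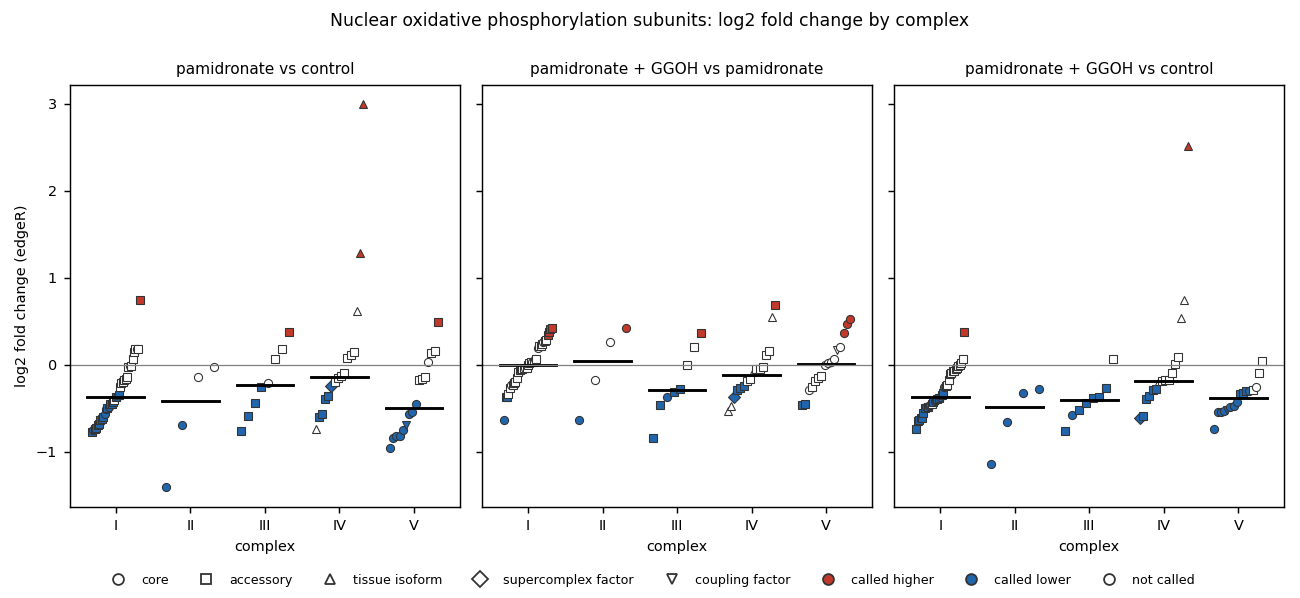
Log2 fold change (y axis, edgeR) of each of the 79 tested members by complex (x axis), for pamidronate vs control, pamidronate + GGOH vs pamidronate and pamidronate + GGOH vs control; the marker shape gives the class of subunit, red and blue mark calls higher and lower at an adjusted p under 0.05, and black bars are medians. In the first panel Sdha lies at -1.41 and Atp5b at -0.96, while Cox6b2, Cox7a1, Ndufb7, Atp5l and Uqcrq are called higher.

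Adding GGOH to pamidronate moved members both ways. Relative to pamidronate alone, 10 members rose and 15 fell with pamidronate + GGOH, 12.7% and 19% of those tested, where 25.2% and 23.6% of all genes tested were called higher and lower, 48.8% in all. The groups did not overlap in 44 members and in 59.6% of all genes tested. Calls were made for neither direction in 54 members, and the members' median log2 fold change was -0.03, against 0.00 for all genes. By complex, members called higher and lower numbered 4 and 3 in complex I, 1 and 1 in complex II, 1 and 5 in complex III, 1 and 4 in complex IV, and 3 and 2 in complex V. Without pamidronate + GGOH replicate 2, 7 members in place of 15 were called lower. On library totals 24 members were called higher and 6 lower, and on deposited TPM 25 and 5. The same 10 members were called higher and 5 members (Atp5e, Atp5l, Ndufs8, Sdhd and Uqcrh) were called lower on all 6 scales.

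With pamidronate + GGOH relative to control, 2 members rose and 50 fell, against 26.3% and 26% of all genes tested called higher and lower. In either direction 52.4% of all genes were called. The groups did not overlap in 55 members and in 58.2% of all genes tested. The members' median log2 fold change was -0.34 and that of all genes 0.02. With upper-quartile factors 6 members were called higher and 23 lower, on library totals 7 and 21, and on deposited TPM 15 and 10. The median of all genes moved with the scale, to 0.23, 0.26 and 0.35, and the members' median stayed -0.37 to -0.36 from it on all 6 scales. Lower on every scale were 10 members (Atp5a1, Cox7a2l, Cox7b, Ndufa2, Ndufa10, Ndufc2, Sdha, Sdhd, Uqcrfs1 and Uqcrh), and Ndufb7 was higher on every one. RLE factors gave 51 members called lower, and TMM factors without the mitochondrially encoded genes, Malat1 and Gm26917 gave 50.

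Sums over the members of a complex weigh abundant members most. In the controls' CPM these were Atp5a1 and Atp5b in complex V and Sdha in complex II, so a sum need not describe the other members. Summed in CPM, complex V stood at 68.0% to 76.2% of the control mean with pamidronate + GGOH. With pamidronate it stood at 63.1% to 67.0%. On deposited TPM the same sums stood at 84.4% to 96.2% and 71.1% to 76.5%, against 97.7% to 102% in the controls, so neither drug group overlapped the controls on either scale. Complex II in CPM stood at 60.9% to 70.2% with pamidronate + GGOH and at 62.2% to 68.8% with pamidronate, and on TPM at 77.4% to 89.9% and 79.6% to 87.7%, with the controls at 91.6% to 105%. Complex I stood at 79.2% ± 2.20 with pamidronate + GGOH and 79.5% ± 1.88 with pamidronate in CPM, and at 99.0% ± 2.38 and 88.8% ± 3.53 on TPM. Complex III stood at 74.7% ± 2.79 and 90.6% ± 3.22 in CPM, and at 94.7% ± 3.43 and 102% ± 3.66 on TPM, in the same order of groups. The complex IV sum was 80.7% ± 3.18 of the control mean with pamidronate + GGOH and 89.2% ± 0.698 with pamidronate in CPM, and 103% ± 2.94 and 100.4% ± 1.54 on TPM, with n = 3 and the SD after each mean. On the TPM scale both drug groups overlapped the complex IV controls, which ran from 95.5% to 103%. The same held for complex III, where the controls ran from 96.9% to 102%. In complex I the pamidronate + GGOH libraries (96.6% to 101%) overlapped the controls (97.1% to 102%) on TPM, and the pamidronate libraries (85.3% to 92.4%) lay below them.

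**Figure D2:**
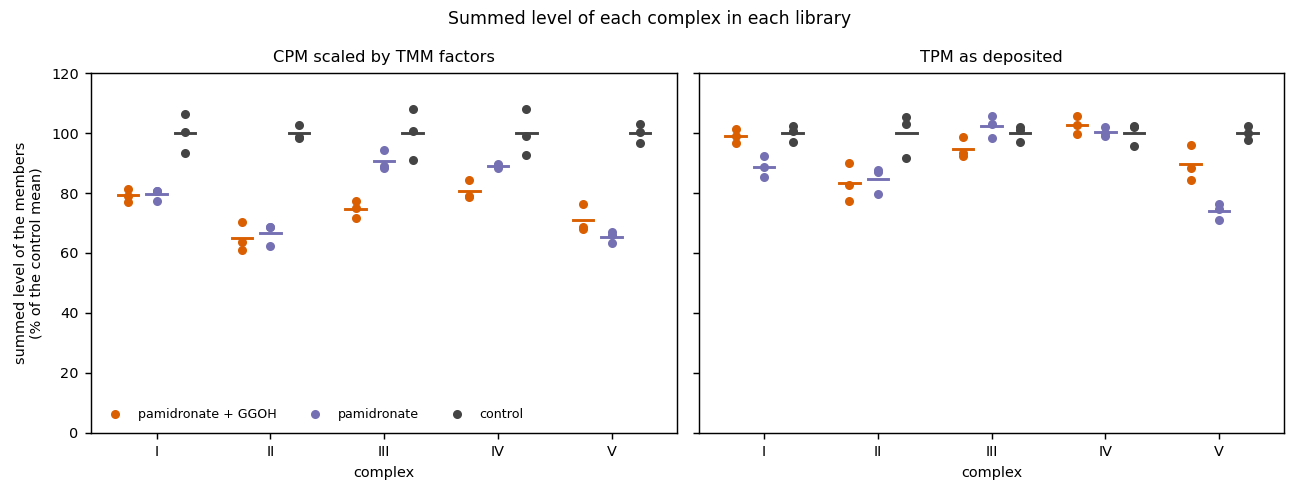
Summed level of the members of each complex in each library as a percentage of the control mean (y axis) by complex (x axis), in CPM scaled by TMM factors (left) and in deposited TPM (right); points are libraries and short lines group means. Complexes II and V lie below the controls in both drug groups on both scales. On the TPM scale complexes III and IV overlap the controls in both drug groups, and complex I does so with pamidronate + GGOH.

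Complex I takes electrons from NADH in its matrix-facing peripheral arm, and its membrane arm pumps protons. Of 16 peripheral arm members 9 fell and 0 rose in pamidronate relative to control, and of 19 membrane arm members 10 fell and 1 rose. The shares called lower were 56.2% and 52.6%, beside 32.9% of all genes tested called lower and 36.2% called higher. Ndufv1, which binds NADH, had 33.0, 33.8 and 38.6 CPM with pamidronate + GGOH, 37.8, 33.3 and 32.1 CPM with pamidronate and 50.3, 49.7 and 46.5 CPM in the controls. Both drug groups lay below all controls, and the log2 fold change against control was -0.47, SE 0.10, edgeR adjusted p = 0.00102 with pamidronate + GGOH and -0.50, SE 0.10, edgeR adjusted p = 0.000326 with pamidronate. Ndufv2, its iron-sulphur neighbour, had 26.6, 25.8 and 25.9 CPM with pamidronate + GGOH, 24.1, 21.7 and 22.7 CPM with pamidronate and 36.3, 34.2 and 30.7 CPM in the controls. The 3 groups did not overlap, with the controls highest. Ndufv2 fell in pamidronate relative to control (log2 fold change -0.56, SE 0.10, edgeR adjusted p = 0.000137), and with pamidronate + GGOH relative to control the log2 fold change was -0.37, SE 0.10, edgeR adjusted p = 0.00555, called lower on 3 of the 6 scales. Ndufs1, the largest iron-sulphur subunit, had 50.9, 49.5 and 55.4 CPM with pamidronate + GGOH, 52.1, 50.5 and 46.2 CPM with pamidronate and 68.7, 72.6 and 66.2 CPM in the controls. Its 2 drug groups overlapped each other and lay below the controls, with a log2 fold change of -0.48, SE 0.09, edgeR adjusted p = 0.000172 for pamidronate against control and -0.41, SE 0.09, edgeR adjusted p = 0.00111 for pamidronate + GGOH against control, called lower on 4 of the 6 scales. Ndufs1 shares its locus with Eef1b2 on the opposite strand, and the sources used here do not say whether counting used the strand.

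Near the pocket where ubiquinone is reduced, subunits differed in their pattern. Ndufs8, an iron-sulphur subunit on the path to the pocket, had 55.0, 51.0 and 63.1 CPM with pamidronate + GGOH, 89.5, 89.6 and 84.2 CPM with pamidronate and 72.5, 79.2 and 80.7 CPM in the controls. Pamidronate libraries were highest and pamidronate + GGOH libraries lowest, without overlap. Ndufs8 fell with pamidronate + GGOH relative to pamidronate (log2 fold change -0.64, SE 0.09, edgeR adjusted p = 5.77e-05) and relative to control (-0.46, SE 0.09, edgeR adjusted p = 0.00086), and pamidronate against control gave 0.18, SE 0.09, edgeR adjusted p = 0.0914. Ndufa9, an accessory subunit beside the pocket, had 26.3, 27.7 and 30.3 CPM with pamidronate + GGOH, 26.4, 25.4 and 20.5 CPM with pamidronate and 37.1, 42.0 and 40.2 CPM in the controls. Its drug groups overlapped each other and lay below the controls, with -0.72, SE 0.11, edgeR adjusted p = 4.22e-05 for pamidronate and -0.50, SE 0.11, edgeR adjusted p = 0.00172 for pamidronate + GGOH against control (log2 fold changes), the second called lower on 4 of the 6 scales. Ndufs7 and Ndufs3, also core subunits of this arm, had log2 fold changes of -0.37 (called) and -0.02 (not called) in pamidronate against control, and the call of Ndufs7 was lost without control replicate 1 or pamidronate replicate 3 (edgeR adjusted p up to 0.099).

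Among accessory subunits of complex I, Ndufa8, which lies on the intermembrane-space side, was furthest below control in pamidronate. It had 15.5, 14.5 and 17.8 CPM with pamidronate + GGOH, 13.6, 13.0 and 12.5 CPM with pamidronate and 24.7, 22.6 and 19.5 CPM in the controls, with no overlap between any of the groups. Ndufa8 fell in pamidronate relative to control (log2 fold change -0.77, SE 0.12, edgeR adjusted p = 6.05e-05), and pamidronate + GGOH against control gave -0.48, SE 0.12, edgeR adjusted p = 0.00413, called lower on 3 of the 6 scales. Ndufb7, another subunit of that side, ran the other way with 21.7, 18.004 and 18.7 CPM with pamidronate + GGOH, 23.2, 22.5 and 29.7 CPM with pamidronate and 14.0, 13.7 and 17.5 CPM in the controls. It was the one complex I member called higher in pamidronate than in control (log2 fold change 0.74, SE 0.14, edgeR adjusted p = 0.000262), on all 6 scales, and the pamidronate libraries lay above both other groups. With pamidronate + GGOH relative to control Ndufb7 gave 0.37, SE 0.14, edgeR adjusted p = 0.0367, a call lost without control replicates 1 or 2 or pamidronate + GGOH replicate 1 (edgeR adjusted p up to 0.157). Ndufc2, a membrane arm subunit, had 49.4, 54.8 and 60.2 CPM with pamidronate + GGOH, 51.8, 55.0 and 54.3 CPM with pamidronate and 94.9, 87.1 and 75.4 CPM in the controls. Drug groups overlapped and both fell relative to control on all 6 scales, by a log2 fold change of -0.65, SE 0.10, edgeR adjusted p = 0.000126 with pamidronate + GGOH and -0.68, SE 0.10, edgeR adjusted p = 2.99e-05 with pamidronate. Ndufa6, an LYR-motif subunit of the matrix side, had 10.3, 9.34 and 9.41 CPM with pamidronate + GGOH, 13.0, 12.0 and 11.6 CPM with pamidronate and 21.8, 14.1 and 12.4 CPM in the controls. It was lowest with pamidronate + GGOH, where the log2 fold change against control was -0.73, SE 0.18, edgeR adjusted p = 0.0033, called lower on 5 of the 6 scales.

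Movements in both directions appeared in the membrane arm when GGOH was added. Ndufc1 had 64.9, 61.9 and 66.9 CPM with pamidronate + GGOH, 46.5, 53.7 and 44.3 CPM with pamidronate and 64.1, 67.5 and 63.1 CPM in the controls. The pamidronate libraries lay below both other groups, which overlapped each other, and Ndufc1 rose with pamidronate + GGOH relative to pamidronate (log2 fold change 0.42, SE 0.09, edgeR adjusted p = 0.00127) on all 6 scales. Ndufa11, which sits beside the complex I core in the membrane, had 19.7, 19.4 and 19.2 CPM with pamidronate + GGOH, 14.0, 14.5 and 15.4 CPM with pamidronate and 25.3, 26.0 and 21.8 CPM in the controls. It too rose with pamidronate + GGOH relative to pamidronate on all 6 scales (log2 fold change 0.41, SE 0.11, edgeR adjusted p = 0.00577), and its lower level relative to control (-0.32) was called on 3 of the 6 scales. Ndufb8 and Ndufv3, accessory subunits of the membrane and peripheral arms, rose by log2 fold changes of 0.37 and 0.34, and the call of Ndufb8 was lost without pamidronate replicate 3 (edgeR adjusted p = 0.0695). Ndufb4, a membrane arm subunit, had 19.0, 15.5 and 19.7 CPM with pamidronate + GGOH, 22.2, 26.0 and 21.8 CPM with pamidronate and 23.5, 24.4 and 23.4 CPM in the controls. It was lower with pamidronate + GGOH than with pamidronate (log2 fold change -0.37, SE 0.12, edgeR adjusted p = 0.0169), called lower on 4 of the 6 scales and lost without pamidronate replicate 2 or pamidronate + GGOH replicate 2 (edgeR adjusted p up to 0.157).

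Complex II, the one complex made wholly from nuclear genes, held the member furthest below control. Sdha, the flavoprotein that oxidises succinate, had 56.5, 67.3 and 78.1 CPM with pamidronate + GGOH, 62.5, 57.6 and 47.8 CPM with pamidronate and 145, 156 and 145 CPM in the controls. Every drug library lay below every control, and the drug groups overlapped. Sdha fell in pamidronate relative to control (log2 fold change -1.41, SE 0.12, edgeR adjusted p = 1.44e-07) and with pamidronate + GGOH relative to control (-1.14, SE 0.12, edgeR adjusted p = 6.51e-06), both on all 6 scales, and pamidronate + GGOH against pamidronate gave 0.27, SE 0.12, edgeR adjusted p = 0.0774. Sdhb, the iron-sulphur subunit next in the electron path, had 59.8, 63.0 and 64.9 CPM with pamidronate + GGOH, 70.6, 72.3 and 69.2 CPM with pamidronate and 78.3, 76.8 and 79.3 CPM in the controls. The groups did not overlap, and the log2 fold change was -0.14, SE 0.08, edgeR adjusted p = 0.105 for pamidronate and -0.32, SE 0.08, edgeR adjusted p = 0.00287 for pamidronate + GGOH against control, the second called lower on 3 of the 6 scales.

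The membrane anchors of complex II, which hold its ubiquinone site, parted. Sdhc had 83.8, 83.0 and 90.8 CPM with pamidronate + GGOH, 69.7, 64.0 and 59.2 CPM with pamidronate and 108, 104 and 99.6 CPM in the controls. The pamidronate libraries lay below both other groups. Sdhc fell in pamidronate relative to control (log2 fold change -0.69, SE 0.09, edgeR adjusted p = 4.69e-06) and rose with pamidronate + GGOH relative to pamidronate (0.42, SE 0.09, edgeR adjusted p = 0.00096), both on all 6 scales. Its lower level with pamidronate + GGOH relative to control (-0.27, SE 0.08, edgeR adjusted p = 0.0141) was called on 3 of the 6 scales and lost without pamidronate + GGOH replicate 2 (edgeR adjusted p = 0.0579). Sdhd, the partner anchor, had 56.7, 54.9 and 62.1 CPM with pamidronate + GGOH, 86.9, 96.3 and 86.4 CPM with pamidronate and 85.9, 97.1 and 91.4 CPM in the controls. Here the pamidronate libraries and the controls overlapped (-0.03, SE 0.09, edgeR adjusted p = 0.8) and every pamidronate + GGOH library lay below both. Sdhd fell with pamidronate + GGOH relative to pamidronate (log2 fold change -0.63, SE 0.09, edgeR adjusted p = 3.68e-05) and relative to control (-0.66, SE 0.09, edgeR adjusted p = 3.43e-05), on all 6 scales.

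**Figure D3:**
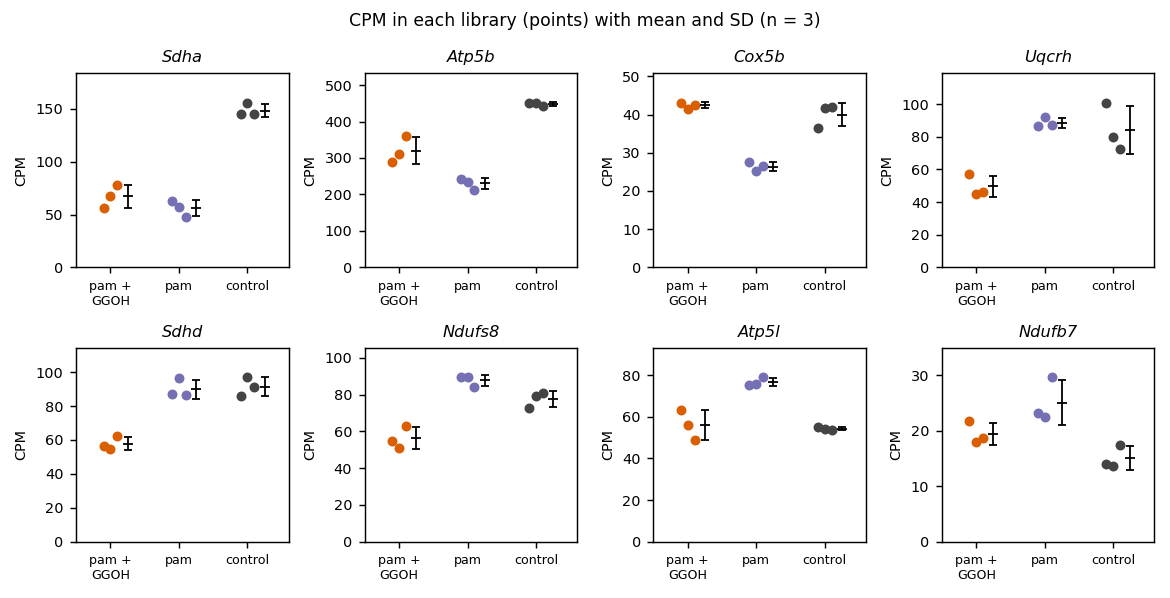
CPM scaled by TMM factors (y axis) of 8 members in each library (points, with mean ± SD in black beside them) with pamidronate + GGOH ("pam + GGOH"), pamidronate ("pam") and in the controls (x axis). Sdha and Atp5b lie below the controls in both drug groups, Cox5b dips in pamidronate, Uqcrh, Sdhd and Ndufs8 are lowest with pamidronate + GGOH, and Atp5l and Ndufb7 are highest in pamidronate.

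In complex III, members fell with pamidronate + GGOH relative to pamidronate more than in any other complex, 5 of 8. Over all genes tested, 23.6% were called lower in that comparison. The median log2 fold change of complex III was -0.29, which lay -0.30 to -0.29 from that of all genes on the 6 scales. On every scale, though, only Uqcrh was called lower. Uqcrh, the acidic hinge beside cytochrome c1, had 57.1, 45.2 and 46.4 CPM with pamidronate + GGOH, 86.7, 91.8 and 86.9 CPM with pamidronate and 101, 79.6 and 72.2 CPM in the controls. Every pamidronate + GGOH library lay below every other library, and pamidronate and control overlapped (0.07, SE 0.12, edgeR adjusted p = 0.606). Uqcrh fell with pamidronate + GGOH relative to pamidronate (log2 fold change -0.84, SE 0.12, edgeR adjusted p = 6.54e-05) and relative to control (-0.76, SE 0.12, edgeR adjusted p = 0.000156). Uqcrfs1, the Rieske iron-sulphur protein and one of the subunits that carry electrons, had 40.1, 36.9 and 37.4 CPM with pamidronate + GGOH, 52.1, 45.8 and 49.9 CPM with pamidronate and 62.5, 55.4 and 52.7 CPM in the controls. The groups did not overlap, and Uqcrfs1 fell with pamidronate + GGOH relative to control on all 6 scales (-0.58, SE 0.09, edgeR adjusted p = 0.000172), while pamidronate against control gave -0.21, SE 0.09, edgeR adjusted p = 0.0583. Uqcr10, a small subunit of the membrane domain, had 47.7, 50.8 and 57.2 CPM with pamidronate + GGOH, 68.6, 79.4 and 66.0 CPM with pamidronate and 60.3, 61.4 and 66.2 CPM in the controls. It was lower with pamidronate + GGOH than with pamidronate (log2 fold change -0.46, SE 0.10, edgeR adjusted p = 0.00134), called lower on 5 of the 6 scales.

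The large matrix-facing subunits Uqcrc1 and Uqcrc2, relatives of the mitochondrial processing peptidase, differed from each other. Uqcrc1 had 54.9, 53.9 and 64.6 CPM with pamidronate + GGOH, 51.9, 52.2 and 45.8 CPM with pamidronate and 77.9, 78.9 and 68.0 CPM in the controls, with no overlap between the groups. It fell in pamidronate relative to control (log2 fold change -0.58, SE 0.10, edgeR adjusted p = 9.87e-05) on all 6 scales, and its lower level with pamidronate + GGOH (-0.37, SE 0.10, edgeR adjusted p = 0.00544) was called on 3 of the 6 scales. Uqcrc2 had 64.4, 64.0 and 70.0 CPM with pamidronate + GGOH, 76.6, 86.5 and 76.8 CPM with pamidronate and 105, 98.6 and 82.1 CPM in the controls. Its pamidronate libraries overlapped the controls, where the log2 fold change was -0.25, SE 0.10, edgeR adjusted p = 0.0328, a call lost without control replicate 1 or pamidronate replicates 1 or 3 (edgeR adjusted p up to 0.125). With pamidronate + GGOH Uqcrc2 gave -0.52, SE 0.10, edgeR adjusted p = 0.000526 against control, called lower on 5 of the 6 scales.

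The small subunits of complex III spread in both directions. Uqcr11 had 14.0, 13.8 and 12.6 CPM with pamidronate + GGOH, 10.8, 9.99 and 10.5 CPM with pamidronate and 18.05, 19.9 and 14.7 CPM in the controls. Pamidronate libraries were lowest without overlap, and Uqcr11 fell in pamidronate relative to control (log2 fold change -0.75, SE 0.13, edgeR adjusted p = 0.000141) on all 6 scales. Its rise with pamidronate + GGOH relative to pamidronate (0.37, SE 0.13, edgeR adjusted p = 0.0321) was lost without pamidronate replicates 1, 2 or 3 or pamidronate + GGOH replicates 1 or 2 (edgeR adjusted p up to 0.102). Uqcrq, a subunit that contacts cytochrome b, had 54.6, 54.9 and 54.6 CPM with pamidronate + GGOH, 66.0, 67.0 and 70.5 CPM with pamidronate and 51.5, 54.3 and 51.3 CPM in the controls. It rose in pamidronate relative to control (log2 fold change 0.37, SE 0.08, edgeR adjusted p = 0.000574) on all 6 scales, with every pamidronate library above every control. With pamidronate + GGOH relative to control Uqcrq was called higher on 3 of the 6 scales. Cyc1, the cytochrome c1 subunit of this complex, whose symbol lies outside the rule, averaged 55.0 CPM with pamidronate + GGOH, 37.7 CPM with pamidronate and 87.6 CPM in the controls. Its log2 fold change of -1.22 in pamidronate against control (SE 0.12, edgeR adjusted p = 3.6e-07) was larger in size than that of any complex III member.

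In complex IV, whose catalytic subunits are encoded by mitochondrial DNA, the nuclear subunits surround and regulate the core. In pamidronate relative to control 7 of 16 members were called, 2 higher and 5 lower. These were 12.5% and 31.2%, beside 36.2% and 32.9% of all genes tested, so the share called lower was near that of all genes. Cox6b2, which passed the filter only through the drug libraries, is among the 2 called higher. Cox5b, which binds zinc on the matrix side, had 43.1, 41.6 and 42.6 CPM with pamidronate + GGOH, 27.5, 25.2 and 26.4 CPM with pamidronate and 36.4, 41.7 and 41.9 CPM in the controls. Every pamidronate library lay below every other library, and Cox5b fell in pamidronate relative to control (log2 fold change -0.60, SE 0.09, edgeR adjusted p = 3.86e-05) and rose with pamidronate + GGOH relative to pamidronate (0.68, SE 0.09, edgeR adjusted p = 3.07e-05), both on all 6 scales. Pamidronate + GGOH libraries and controls overlapped (0.08, SE 0.09, edgeR adjusted p = 0.445), although Cox5b was called higher in that comparison on 3 of the 6 scales. Cox5a, its neighbour on the matrix side, had 24.2, 24.5 and 30.5 CPM with pamidronate + GGOH, 30.2, 25.6 and 26.0 CPM with pamidronate and 40.7, 30.2 and 33.5 CPM in the controls. Groups overlapped, and the log2 fold change in pamidronate against control was -0.35, SE 0.13, edgeR adjusted p = 0.0253, a call lost without control replicate 1 or pamidronate replicates 2 or 3 (edgeR adjusted p up to 0.125). With pamidronate + GGOH against control Cox5a gave -0.39, SE 0.13, edgeR adjusted p = 0.0193, a call lost without control replicate 1 or pamidronate + GGOH replicates 1 or 2 (edgeR adjusted p up to 0.0845).

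Cox7b, a small subunit that spans the membrane, had 84.5, 89.6 and 100.1 CPM with pamidronate + GGOH, 94.7, 96.0 and 89.2 CPM with pamidronate and 146, 138 and 129 CPM in the controls. Drug groups overlapped and lay below all controls, with log2 fold changes against control of -0.59, SE 0.09, edgeR adjusted p = 8e-05 with pamidronate + GGOH and -0.56, SE 0.09, edgeR adjusted p = 4.15e-05 with pamidronate, on all 6 scales. Cox8a was the member with the highest deposited TPM, 867 ± 39.0 with pamidronate + GGOH, 845 ± 16.1 with pamidronate and 877 ± 66.1 in the controls (SD, n = 3). In CPM it had 179, 160.0 and 159 CPM with pamidronate + GGOH, 184, 186 and 187 CPM with pamidronate and 236, 215 and 185 CPM in the controls. Its log2 fold change was -0.19, SE 0.09, edgeR adjusted p = 0.0825 in pamidronate and -0.35, SE 0.09, edgeR adjusted p = 0.00618 with pamidronate + GGOH against control, the second called lower on 3 of the 6 scales. Ndufa4, once counted with complex I, had 67.9, 65.2 and 60.9 CPM with pamidronate + GGOH, 56.4, 57.7 and 59.6 CPM with pamidronate and 54.6, 68.2 and 70.2 CPM in the controls. None of its comparisons was called with TMM factors, and pamidronate against control gave -0.15, SE 0.10, edgeR adjusted p = 0.179. Ndufa4l2, its hypoxia-linked relative, had 9, 2 and 12 counts with pamidronate + GGOH, 4, 10 and 6 with pamidronate and 4, 4 and 2 in the controls, and it was not tested.

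Cox7a2l, a factor that joins complexes III and IV into supercomplexes, had 173, 153 and 154 CPM with pamidronate + GGOH, 202, 211 and 208 CPM with pamidronate and 279, 236 and 219.6 CPM in the controls. No groups overlapped and pamidronate + GGOH was lowest. Cox7a2l fell with pamidronate + GGOH relative to control (log2 fold change -0.61, SE 0.10, edgeR adjusted p = 0.000144) on all 6 scales. Relative to pamidronate it gave -0.37, SE 0.10, edgeR adjusted p = 0.0054, a call lost without pamidronate + GGOH replicate 2 (edgeR adjusted p = 0.0569), and pamidronate against control gave -0.24, SE 0.10, edgeR adjusted p = 0.0364, a call lost without control replicate 1 or pamidronate replicates 1, 2 or 3 (edgeR adjusted p up to 0.17). Cox7a2, the widely expressed subunit of the same family, had 81.5, 83.6 and 78.9 CPM with pamidronate + GGOH, 94.7, 103 and 95.1 CPM with pamidronate and 98.7, 89.2 and 89.2 CPM in the controls. Its lower level with pamidronate + GGOH relative to pamidronate (-0.26, SE 0.08, edgeR adjusted p = 0.0134) was lost without control replicate 2, pamidronate replicate 2 or pamidronate + GGOH replicates 1, 2 or 3 (edgeR adjusted p up to 0.0713). Cox7c, another membrane-spanning subunit, had 42.2, 38.7 and 36.9 CPM with pamidronate + GGOH, 49.4, 46.6 and 47.5 CPM with pamidronate and 48.1, 44.1 and 40.5 CPM in the controls. It gave -0.29, SE 0.09, edgeR adjusted p = 0.0194 for pamidronate + GGOH against pamidronate, a call lost without control replicate 2, pamidronate replicate 1 or pamidronate + GGOH replicates 2 or 3 (edgeR adjusted p up to 0.118), and reads of near-identical copies amounted to 9.05% of its own.

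Complex IV has subunits that come in tissue forms. Cox4i1, the general form of the largest nuclear subunit, had 55.6, 52.2 and 48.2 CPM with pamidronate + GGOH, 51.1, 45.1 and 47.9 CPM with pamidronate and 68.7, 60.4 and 60.3 CPM in the controls. It fell in pamidronate relative to control (log2 fold change -0.39, SE 0.09, edgeR adjusted p = 0.00152), called lower on 5 of the 6 scales, and with pamidronate + GGOH gave -0.28, SE 0.09, edgeR adjusted p = 0.0189 against control, a call lost without control replicate 1 or pamidronate + GGOH replicate 2 (edgeR adjusted p up to 0.0656). Cox4i1 overlaps Emc8 on the opposite strand. Cox4i2, the lung form, had 2.04, 1.62 and 1.37 CPM with pamidronate + GGOH, 0.733, 1.27 and 1.42 CPM with pamidronate and 0.935, 2.91 and 1.85 CPM in the controls. It took 5.93% of the Cox4 TPM with pamidronate + GGOH, 4.498% with pamidronate and 5.65% in the controls, and no comparison was called. Cox6a1, the liver form, had 29.4, 26.8 and 26.6 CPM with pamidronate + GGOH, 29.3, 31.9 and 24.6 CPM with pamidronate and 30.2, 31.7 and 31.7 CPM in the controls, and no comparison was called (pamidronate against control -0.13, SE 0.11, edgeR adjusted p = 0.305). Cox6a2, the heart and muscle form, had 13.3, 14.0 and 14.3 CPM with pamidronate + GGOH, 14.6, 12.8 and 16.5 CPM with pamidronate and 15.3, 9.13 and 4.08 CPM in the controls. Controls ranged widely, and the log2 fold change in pamidronate against control was 0.62, SE 0.37, edgeR adjusted p = 0.17, called without control replicate 1 (edgeR adjusted p = 0.00168).

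Of 4 tissue isoforms tested (Cox4i2, Cox6a2, Cox6b2 and Cox7a1), 2 were called higher in pamidronate relative to control, both at low counts. Over all genes tested, 36.2% were called higher. Cox7a1, the muscle form, had 28, 24 and 15 counts with pamidronate + GGOH, 39, 22 and 29 counts with pamidronate and 12, 16 and 11 counts in the controls. Pamidronate libraries did not overlap the controls, and Cox7a1 rose in pamidronate relative to control (log2 fold change 1.28, SE 0.35, edgeR adjusted p = 0.00497) on all 6 scales. With pamidronate + GGOH relative to control Cox7a1 was called higher on 3 of the 6 scales. Cox6b2, the testis form, had 9, 14 and 8 counts with pamidronate + GGOH, 8, 10 and 22 counts with pamidronate and 2, 2 and 1 counts in the controls. The controls lay below every drug library, and the filter was passed only through the drug libraries, so the log2 fold changes of 2.52 with pamidronate + GGOH and 2.99 with pamidronate against control are given as a description. By deposited TPM, Cox7a1 made up 1.05% of the Cox7a TPM with pamidronate + GGOH, 1.21% with pamidronate and 0.458% in the controls, and Cox6b2 made up 0.292%, 0.333% and 0.0436% of the Cox6b TPM. Striated muscle markers summed to 4.63 to 6.07 CPM with pamidronate + GGOH, 4.46 to 7.25 CPM with pamidronate and 3.77 to 5.14 CPM in the controls, and 0 of the 3 that could be tested were called in any comparison. Their part in these isoform values was not tested.

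Complex V couples the proton flow through its membrane part, Fo, to ATP synthesis in its matrix part, F1. Of 9 core members in F1, the stalk and the ring, 8 fell and 0 rose in pamidronate relative to control. Over all genes tested, 32.9% were called lower and 36.2% higher. The median log2 fold change of these core members was -0.75. Atp5b, the catalytic beta subunit, had 289, 310.1 and 360.2 CPM with pamidronate + GGOH, 243, 235 and 214 CPM with pamidronate and 451, 451 and 441 CPM in the controls. All pamidronate libraries lay below all pamidronate + GGOH libraries, and these lay below all controls. Atp5b fell in pamidronate relative to control (log2 fold change -0.96, SE 0.10, edgeR adjusted p = 6.5e-07) and rose with pamidronate + GGOH relative to pamidronate (0.47, SE 0.10, edgeR adjusted p = 0.000979), both on all 6 scales. With pamidronate + GGOH relative to control it gave -0.49, SE 0.10, edgeR adjusted p = 0.000757, a call made on every scale but the deposited TPM, where limma's adjusted p was 0.223. Atp5a1, the alpha subunit, had 232, 243 and 285 CPM with pamidronate + GGOH, 248, 248 and 226 CPM with pamidronate and 425, 426 and 419.6 CPM in the controls. Drug groups overlapped below the controls, with log2 fold changes of -0.74, SE 0.09, edgeR adjusted p = 2.46e-05 with pamidronate + GGOH and -0.81, SE 0.09, edgeR adjusted p = 2.26e-06 with pamidronate against control on all 6 scales. Atp5c1, the rotating gamma subunit, had 118, 122 and 132 CPM with pamidronate + GGOH, 124, 137 and 114 CPM with pamidronate and 202, 177 and 165 CPM in the controls. It fell in pamidronate relative to control (log2 fold change -0.54, SE 0.10, edgeR adjusted p = 0.000189) and with pamidronate + GGOH (-0.54, SE 0.10, edgeR adjusted p = 0.000391), the second called lower on 5 of the 6 scales.

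Core subunits of the stalk that holds F1 in place fell as well. Atp5f1, the b subunit, had 76.6, 75.3 and 77.8 CPM with pamidronate + GGOH, 61.5, 62.5 and 54.8 CPM with pamidronate and 111, 108 and 100.4 CPM in the controls, with no overlap between the 3 groups. Atp5f1 fell in pamidronate relative to control (log2 fold change -0.84, SE 0.08, edgeR adjusted p = 5.08e-07) and rose with pamidronate + GGOH relative to pamidronate (0.36, SE 0.08, edgeR adjusted p = 0.00219), although Wdr77 overlaps it on the opposite strand. Atp5o, the subunit that confers oligomycin sensitivity, had 69.9, 68.7 and 77.6 CPM with pamidronate + GGOH, 51.8, 48.3 and 50.6 CPM with pamidronate and 87.4, 93.6 and 84.9 CPM in the controls. It rose with pamidronate + GGOH relative to pamidronate (log2 fold change 0.52, SE 0.08, edgeR adjusted p = 0.000144) and fell in pamidronate relative to control (-0.82, SE 0.08, edgeR adjusted p = 7.42e-07). Both calls held on all 6 scales, and Donson overlaps Atp5o on the same strand. Atp5d, the delta subunit of F1, and Atp5s, a coupling factor, fell in pamidronate relative to control by log2 fold changes of -0.56 and -0.69.

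Among 6 accessory subunits of complex V, 1 rose and 0 fell in pamidronate relative to control, beside 36.2% and 32.9% of all genes tested. Their median log2 fold change was -0.00. Measured against all genes, it lay -0.09 to -0.08 away on the 6 scales, where the core lay -0.83 away. Atp5l, the g subunit at the dimer interface, had 63.3, 56.0 and 48.9 CPM with pamidronate + GGOH, 75.3, 75.8 and 79.1 CPM with pamidronate and 55.1, 54.3 and 53.8 CPM in the controls. Pamidronate libraries were highest without overlap, and Atp5l rose in pamidronate relative to control (log2 fold change 0.50, SE 0.09, edgeR adjusted p = 0.000261) and fell with pamidronate + GGOH relative to pamidronate (-0.45, SE 0.09, edgeR adjusted p = 0.00107), both on all 6 scales. With pamidronate + GGOH relative to control it was called higher on 3 of the 6 scales. Atp5l has 8 near-identical copies elsewhere in the annotation, and the reads counted on them came to at most 5% of its own. Atp5e, the epsilon subunit of F1, had 31.7, 25.8 and 28.4 CPM with pamidronate + GGOH, 37.5, 39.3 and 41.6 CPM with pamidronate and 42.3, 34.0 and 31.2 CPM in the controls. It fell with pamidronate + GGOH relative to pamidronate (log2 fold change -0.46, SE 0.12, edgeR adjusted p = 0.005), a call lost without pamidronate + GGOH replicate 2 (edgeR adjusted p = 0.0531).

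A family of 3 genes encodes the same mature c subunit of the proton-driven ring, and its members moved unequally. Atp5g3 had 60.7, 62.0 and 70.3 CPM with pamidronate + GGOH, 56.2, 55.8 and 54.9 CPM with pamidronate and 86.6, 96.7 and 96.9 CPM in the controls, with no overlap between the groups. It fell in pamidronate relative to control (log2 fold change -0.75, SE 0.09, edgeR adjusted p = 2.48e-06) on all 6 scales and gave 0.21, SE 0.09, edgeR adjusted p = 0.0563 for pamidronate + GGOH against pamidronate. Atp5g1 had 29.5, 32.6 and 39.5 CPM with pamidronate + GGOH, 33.1, 32.8 and 34.3 CPM with pamidronate and 43.8, 44.9 and 48.4 CPM in the controls. It too fell in pamidronate relative to control (log2 fold change -0.45, SE 0.11, edgeR adjusted p = 0.00165), and with pamidronate + GGOH gave -0.43, SE 0.11, edgeR adjusted p = 0.00361, called lower on 3 of the 6 scales. Atp5g2 had 23.0, 21.5 and 20.9 CPM with pamidronate + GGOH, 29.9, 24.7 and 25.1 CPM with pamidronate and 30.8, 26.3 and 20.8 CPM in the controls, with overlap between pamidronate and control (0.03, SE 0.13, edgeR adjusted p = 0.841). By deposited TPM, Atp5g3 made up 59.7% ± 1.32 of the c subunit transcripts with pamidronate + GGOH, 53.0% ± 1.64 with pamidronate and 63.3% ± 3.75 in the controls, and Atp5g2 made up 26.4% ± 2.61, 32.9% ± 2.22 and 22.9% ± 4.42 (SD, n = 3 each). Shares of a family do not depend on the scaling of a library.

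**Figure D4:**
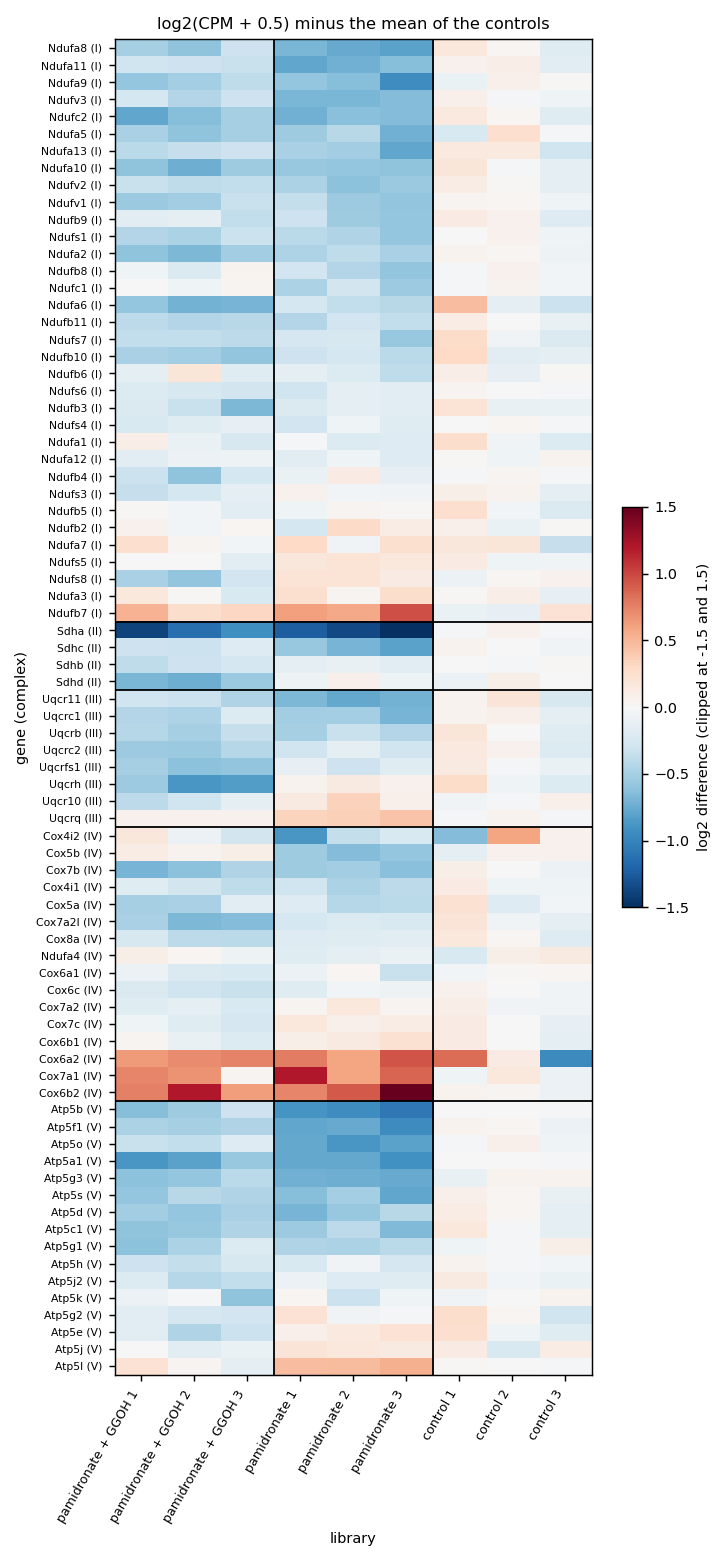
Log2(CPM + 0.5) of the tested members, 1 of them left out, minus the member's mean in the controls, clipped at 1.5 in either direction, with members down the page by complex and the 9 libraries across it (pamidronate + GGOH, pamidronate, control). Sdha and the Atp5 core are blue in the drug libraries, apart from Atp5g2 in pamidronate. Atp5l, Uqcrq and Ndufb7 are red in pamidronate, and Uqcrh and Sdhd are blue with pamidronate + GGOH.

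With the complexes pooled, subunits of the enzyme core, those with a counterpart in bacterial enzymes, were set beside accessory subunits. Complex IV has no nuclear gene in the first class, since its core is encoded by mitochondrial DNA. In pamidronate relative to control 15 of 21 core members fell and 0 rose, and 22 of 52 accessory members fell and 3 rose. The shares called lower were 71.4% and 42.3%, beside 32.9% of all genes tested called lower and 36.2% called higher. The median log2 fold changes were -0.54 in the core and -0.19 among accessory members, and on the 6 scales they lay -0.62 and between -0.28 and -0.27 from the median of all genes. With pamidronate + GGOH relative to control the core lay -0.50 to -0.49 and the accessory members -0.31 from it. The complexes differed in this. In pamidronate relative to control the core and accessory medians were -0.48 and -0.36 in complex I and -0.75 and -0.00 in complex V. In complex III the 1 core member within the rule, Uqcrfs1, stood at -0.21, not called, and the 7 accessory members had a median of -0.25. Cyc1, the cytochrome c1 subunit of this complex, lies outside the rule and is not counted here. It gave -1.22 (edgeR adjusted p = 3.6e-07). Complex II has core members only. Core transcripts are also longer, with a median exon length of 2239 bases against 1244 bases, and more abundant, with a median control level of 78.1 against 36.8 CPM. Among the members, 8 of the 27 shortest (419 to 1131 bases), 14 of the 26 of middle length and 17 of the 26 longest (2101 to 8086 bases) were called lower in pamidronate relative to control. The members' median log2 fold changes in those length ranges were -0.19, -0.30 and -0.49. Over all genes tested in the same ranges, 14.2%, 26.9% and 37.8% were called lower, with median log2 fold changes of 0.62, 0.22 and -0.02. Spearman's rho between exon length and that log2 fold change was -0.23 over the 79 members and -0.15 over all 15963 genes, a description across genes that share the same libraries. The part of length and of level in the difference between core and accessory members was not tested.

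**Figure D5:**
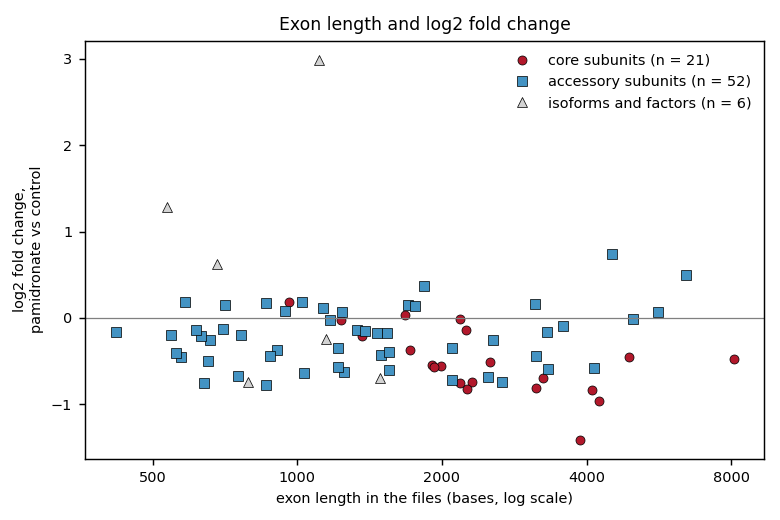
Exon length in bases (x axis, log scale) and log2 fold change in pamidronate against control (y axis, edgeR) of the 79 tested members, marked as core subunits (n = 21), accessory subunits (n = 52) or isoforms and factors (n = 6). The core members have a median length of 2239 bases and a median log2 fold change of -0.54, and the accessory members 1244 bases and -0.19.

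Related genes were read from lists outside the rule. Of all genes tested, 36.2% were called higher and 32.9% lower in pamidronate relative to control. With pamidronate + GGOH the shares were 25.2% and 23.6% relative to pamidronate, and 26.3% and 26% relative to control. Of 47 assembly factors tested, 15 rose and 18 fell in pamidronate relative to control, 31.9% and 38.3%, near the shares of all genes. With pamidronate + GGOH, 7 and 12 were called higher and lower relative to pamidronate, and 4 and 12 relative to control. Sdhaf1, which helps to build iron-sulphur clusters into Sdhb, averaged 9.43 ± 1.72 CPM with pamidronate + GGOH, 21.4 ± 2.496 CPM with pamidronate and 6.98 ± 0.782 CPM in the controls (SD, n = 3). Its log2 fold change was 1.61 in pamidronate against control (edgeR adjusted p = 4.36e-07). Cox17, the copper chaperone of complex IV, averaged 27.9 ± 2.44, 43.1 ± 0.476 and 15.0 ± 1.20 CPM in the same 3 groups, with a log2 fold change of 1.52 (edgeR adjusted p = 1.77e-08). Of the transcripts for subunits made inside mitochondria, 12 of 12 tested fell in both drug groups relative to control, and 7 of 12 rose with pamidronate + GGOH relative to pamidronate. These 12 include mt-Co2, mt-Co3, mt-Atp6, mt-Atp8 and mt-Nd4l, which averaged only 3.04 to 6.30 CPM in the controls, where mt-Co1 averaged 62092 CPM.

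Of 14 TCA cycle enzymes, which supply the NADH and succinate that complexes I and II use, 12 fell and 0 rose in pamidronate relative to control, with a median log2 fold change of -0.72. The 12 were 85.7% of the list, against 32.9% of all genes tested called lower. With pamidronate + GGOH 6 rose and 2 fell relative to pamidronate, and 13 fell relative to control. Idh2, the mitochondrial NADP-linked isocitrate dehydrogenase, averaged 54.3 ± 19.9 CPM with pamidronate + GGOH, 19.0 ± 1.25 CPM with pamidronate and 124 ± 11.3 CPM in the controls (SD, n = 3), with a log2 fold change of -2.71 in pamidronate against control (edgeR adjusted p = 4.4e-06). Fh1, the fumarase that acts just after complex II, averaged 37.7 ± 9.87, 34.6 ± 5.15 and 115 ± 3.19 CPM, with a log2 fold change of -1.73 in pamidronate against control (edgeR adjusted p = 1.63e-06). Among 16 nuclear regulators of mitochondrial genes 5 rose and 7 fell in pamidronate relative to control, 31.2% and 43.8%, beside 36.2% and 32.9% of all genes tested. With pamidronate + GGOH, 6 rose and 6 fell relative to pamidronate, and 0 and 8 relative to control. Tfam, which packages and transcribes mitochondrial DNA, averaged 12.4 ± 1.55 CPM with pamidronate + GGOH, 8.84 ± 0.355 CPM with pamidronate and 18.6 ± 1.57 CPM in the controls, with a log2 fold change of -1.07 in pamidronate against control (edgeR adjusted p = 4.41e-06). Tefm, the elongation factor of mitochondrial transcription, gave -1.17 in the same comparison (edgeR adjusted p = 0.000115).

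The cells expressed the markers of the labelled cell type, with all 12 macrophage markers above the filter, and these moved with the groups too. Macrophage markers summed to 7003 to 10209 CPM with pamidronate + GGOH, 4876 to 6881 CPM with pamidronate and 16433 to 21194 CPM in the controls. In pamidronate relative to control 11 of 12 fell, beside 32.9% of all genes tested. Osteoclast markers summed to 894 to 1245 CPM, 467 to 650.0 CPM and 1044 to 1461 CPM in the same groups. Of 8 osteoclast markers tested, 4 rose and 2 fell in pamidronate relative to control, beside 36.2% and 32.9% of all genes tested. The log2 fold changes were 2.81 for Ctsk, the bone-degrading cathepsin K, and -2.71 for Car2, a carbonic anhydrase, and Calcr was at 0 in pamidronate and in control. The 7 fibroblast markers summed to 2.93 to 3.63, 1.39 to 2.11 and 9.13 to 11.7 CPM, mostly Pdgfrb, with Lum, Dcn and Pdgfra at 0 in the controls. The 5 epithelial and 5 lymphocyte markers summed to at most 2.04 CPM in any library, with Epcam, Cdh1 and Ms4a1 at 0 in the controls. The part of these marker changes in the members' values was not tested.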

How the data were processed

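Gene counts of 9 libraries, deposited by the authors as 1 table with symbols, were taken as raw counts, since they are whole numbers with unequal totals, and the deposited TPM of the same libraries were used as given. Per the submitters' processing notes, reads were trimmed with Trimmomatic 0.36, the build was GRCm38 and DESeq was used. How the authors turned reads into counts and TPM, and whether strand was used, is not given in the sources used here. Libraries were put in 3 groups of 3 from their treatment labels, and 1 batch is given for all.

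The members and the gene lists were chosen with earlier results of these data known. Counts were fitted in R 4.3.3 with edgeR 4.0.16 (filterByExpr at its defaults, TMM factors, robust quasi-likelihood test, 1 model of 3 group means, 6 residual degrees of freedom), with Benjamini-Hochberg adjustment over all 15963 genes tested. A call is an adjusted p under 0.05. The SE of a log2 fold change is its size divided by the square root of the quasi-likelihood F. The biological coefficient of variation was 0.127. Genes named with full values are a fixed set of subunits, 1 of which is not reported here, plus the 2 highest and 2 lowest calls of each complex and comparison, and the 2 largest calls of each related list. Others are given as a log2 fold change.

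Alternatives were RLE and upper-quartile factors, totals without the mitochondrially encoded genes, Malat1 and Gm26917, no filter, a filter of at least 5 CPM in 3 libraries, DESeq2 1.42.0, limma-voom (limma 3.58.1), the 2 groups alone, replicate numbers as a block, a stricter adjusted p (0.01), a fold of at least 1.5, and each library left out. Added after seeing the data were library totals without factors, and limma on log2(TPM + 0.1), which understates changes of low genes. The 6 scales are the TMM one, RLE and upper-quartile factors, totals without the named genes, which also changes the genes tested, library totals, and TPM, which also changes the test. Promoters are from RefSeq (GRCm38.p6) and were matched by symbol. Of 83 members, 20 have a copy elsewhere of at least 95% identity over 80% of the coding sequence (blastn 2.17.0+), and copies held over 5% of the member's counts for Cox7c and Ndufa12. Genes of the opposite strand overlap Ndufs1, Ndufb2, Cox6c, Atp5j and Ndufa4l2 at higher counts than the member, and several others at lower ones. Figures were drawn with matplotlib 3.10.9 in Python 3.11.15.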

Additional observations from a re-analysis of the deposited data

How the results depend on the processing

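In pamidronate against control, members called higher numbered 5, and 14 with upper-quartile factors, 12 with the stricter filter on low counts, 9 on library totals, 15 on deposited TPM and 3 at 1.5-fold or more. Members called lower numbered 39, and 19 at 1.5-fold or more. With pamidronate + GGOH against pamidronate, 10 were called higher, and 24 on library totals, 25 on deposited TPM and 1 at 1.5-fold or more. The 15 called lower became 6 on library totals, 5 on deposited TPM, 8 with no filter, 9 at an adjusted p under 0.01 and 3 at 1.5-fold or more. With pamidronate + GGOH against control, the 2 called higher became 6 with upper-quartile factors, 7 on library totals and 15 on deposited TPM. They became 1 without the mitochondrially encoded genes, Malat1 and Gm26917, 1 with no filter, 1 with DESeq2, 1 with the 2 groups alone, 1 at an adjusted p under 0.01 and 1 at 1.5-fold or more. The 50 called lower became 23 with upper-quartile factors, 27 with the stricter filter, 21 on library totals, 10 on deposited TPM and 11 at 1.5-fold or more. The cause was not tested. Reversals were all in pamidronate + GGOH against control. On deposited TPM the log2 fold change was 0.059 for Sdhc, 0.012 for Sdhb, 0.083 for Ndufs3, 0.27 for Ndufb5, 0.32 for Ndufc1, 0.28 for Ndufs5, 0.31 for Ndufa3, 0.22 for Ndufa12, 0.089 for Ndufs6 and 0.012 for Ndufa11. It was 0.24 for Cox6b1, 0.052 for Cox4i1, 0.048 for Cox6c, 0.059 for Uqcr10, 0.013 for Atp5e, 0.027 for Atp5h and 0.033 for Atp5o, and on library totals 0.22 for Ndufc1. With a library left out, counts called higher and lower ran from 5 to 7 and from 34 to 48 in pamidronate against control, from 8 to 15 and from 7 to 16 in pamidronate + GGOH against pamidronate, and from 1 to 3 and from 39 to 50 in pamidronate + GGOH against control. The 7 called lower came without pamidronate + GGOH replicate 2, and the 1 called higher without control replicate 2 and without pamidronate + GGOH replicate 1. Deviations of same-numbered libraries of different groups correlated at -0.26 to 0.27, and those of differently numbered ones at -0.26 to 0.22. With 3 libraries per group, these values do not settle whether the numbers pair the libraries. A replicate block gave 5 higher and 40 lower, 10 and 15, and 2 and 48. Depth limits Cox7a1, Cox6b2 and Cox4i2, which had 98 counts or fewer summed over any group.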
